A study of Mus musculus with 6 samples.

Results

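The SLC25 family of mitochondrial carriers was followed in neural stem cells (NSCs) of the mouse grown at 21% O2, in cells heterozygous for Setd5 (Setd5+/-) and in wild-type (WT) cells. The members were the rows of the deposited gene table whose symbol is Slc25a followed by a number, with Slc25a20 left out, which gave 48 rows of the 53110 genes listed. Of these rows, 40 averaged at least 10 normalized counts over the 6 samples and were compared between the genotypes. Another 6 stayed below that mean (Slc25a2, Slc25a31, Slc25a41, Slc25a48, Slc25a54 and the pseudogene Slc25a5-ps), Slc25a21 had no read in any sample, and a second row named Slc25a32 (ENSMUSG00000107007) carried no values.

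Most carriers of this family sit in the inner mitochondrial membrane, which small charged molecules do not cross on their own. They bring ADP and phosphate in for ATP synthesis and let ATP out, and they move amino acids, citric acid cycle intermediates, cofactors and iron between the matrix and the cytosol. They share a fold of repeated helix pairs around a single substrate site that opens to one side of the membrane at a time, and they are encoded in the nucleus and imported after translation. In many tissues, the ADP/ATP carriers and the phosphate carrier are usually the most abundant of them.

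The cells were primary NSCs from the embryonic mouse cortex, kept in adhesion in medium with bFGF and EGF. Both genotypes had the same medium and oxygen level, and the heterozygous cells had been made from NSCs with CRISPR-Cas9. Each genotype has 3 labelled samples, but the columns of a genotype share one index and lane and are named as numbered parts of one sequencing file, and the columns taken as heterozygous all name a single clone, A3. These columns do not name the genotype, and they were assigned because the study's methods name clones of the heterozygous cells only. The counts of the parts differed by no more than the sampling noise of read pairs: their variance over the mean lay between 1.92 and 1.96 in the 6 pairs within a genotype, close to the 2 that counting both reads of a pair gives, and between 63.4 and 63.9 in the 9 pairs between genotypes. Genes with 2 reads were 3.66 to 4.22 times as many as genes with 1 read in the 6 samples, so most reads were counted in pairs. The samples of a genotype were counted as 1 library per genotype, so no p-value is given, and genotype, clone, library and lane cannot be told apart. Counted reads summed to 30004634 in WT and 21435546 in Setd5+/-.

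Normalized counts are reads divided by the size factor of the sample, so they compare samples but not genes of different length. A gene is called lower or higher where the means of the 2 genotypes differ at least 1.5-fold and the 95% interval of the log2 fold change leaves out 0. That interval covers counting error only. The same holds for statements that every sample of a genotype was lower or higher, since its 3 samples are parts of 1 library.

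Setd5 itself (chr6:113077365-113153435) had 2498, 2749 and 2780 normalized counts in WT and 2151, 1990 and 2055 in Setd5+/-. The heterozygous values were all below the WT values, and the log2 fold change, -0.37 with a 95% counting interval from -0.44 to -0.31, was under the fold needed for a call. An edited allele can still be transcribed, so this level checks the labels only in part.

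The cell type was checked with marker genes. Neural stem cell markers were abundant in both libraries, summing to between 73853 and 74063 normalized counts in WT and between 53518 and 54185 in Setd5+/-. Of the 9 markers, Fabp7 and Prom1 were called lower and Vim higher. Markers of other identities moved between the libraries as well. The 6 oligodendrocyte lineage markers summed to between 40197 and 41063 in WT and between 22247 and 23073 in Setd5+/-, with 4 called lower, among them Olig1 and Sox10. The 4 astrocyte markers summed to between 787.6 and 807.7 in WT and between 1237 and 1397 in Setd5+/-, with 3 called higher, among them Gfap, and Aldh1l1 called lower. Of the 3 forebrain markers tested, 2 were called lower, among them Lhx2, and Emx1, a marker of the cortex, was near 0 in both. Neurod1 was at 0 and Rbfox3 near 0, while 2 of the 4 neuron markers tested (Dcx and Syt1) were called lower and the sum of the 6, mostly Map2, was between 10232 and 10583 in WT and between 12465 and 12591 in Setd5+/-. Microglia, endothelium and mesenchyme markers summed to at most 118.6 normalized counts in any sample, and of them Csf1r was called lower and Kdr higher. The part of these differences in the carrier results was not tested, and in bulk RNA fewer cells of a type and less RNA per cell cannot be told apart.

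Carrier RNA was lower in the Setd5+/- library for most of the family, and the members with the highest levels were among those that fell. Of the 40 members tested, 11 were called lower (27.5%), against 14.8% of the 16266 genes tested, and 4 were called higher (10%), against 18.9% of all genes. The other 25 were not called. The log2 fold change was below 0 in 29 members and above 0 in 11, with a median of -0.37 over the members and -0.02 over all genes tested. The counting interval lay below 0 in 23 members, above 0 in 8 and held 0 in 9. With that interval as the only rule, 10625 of the 16266 genes tested were called, both directions together. The 3 values of each genotype did not overlap in 32 members (80%), against 65.3% of all genes tested. Slc25a43 passed the filter on low values only through the library where it was high, so these counts describe the members that passed and not the whole family. No member tested lies on chromosome 1, whose 1044 genes tested had a median log2 fold change of 0.54.

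**Figure D1:**
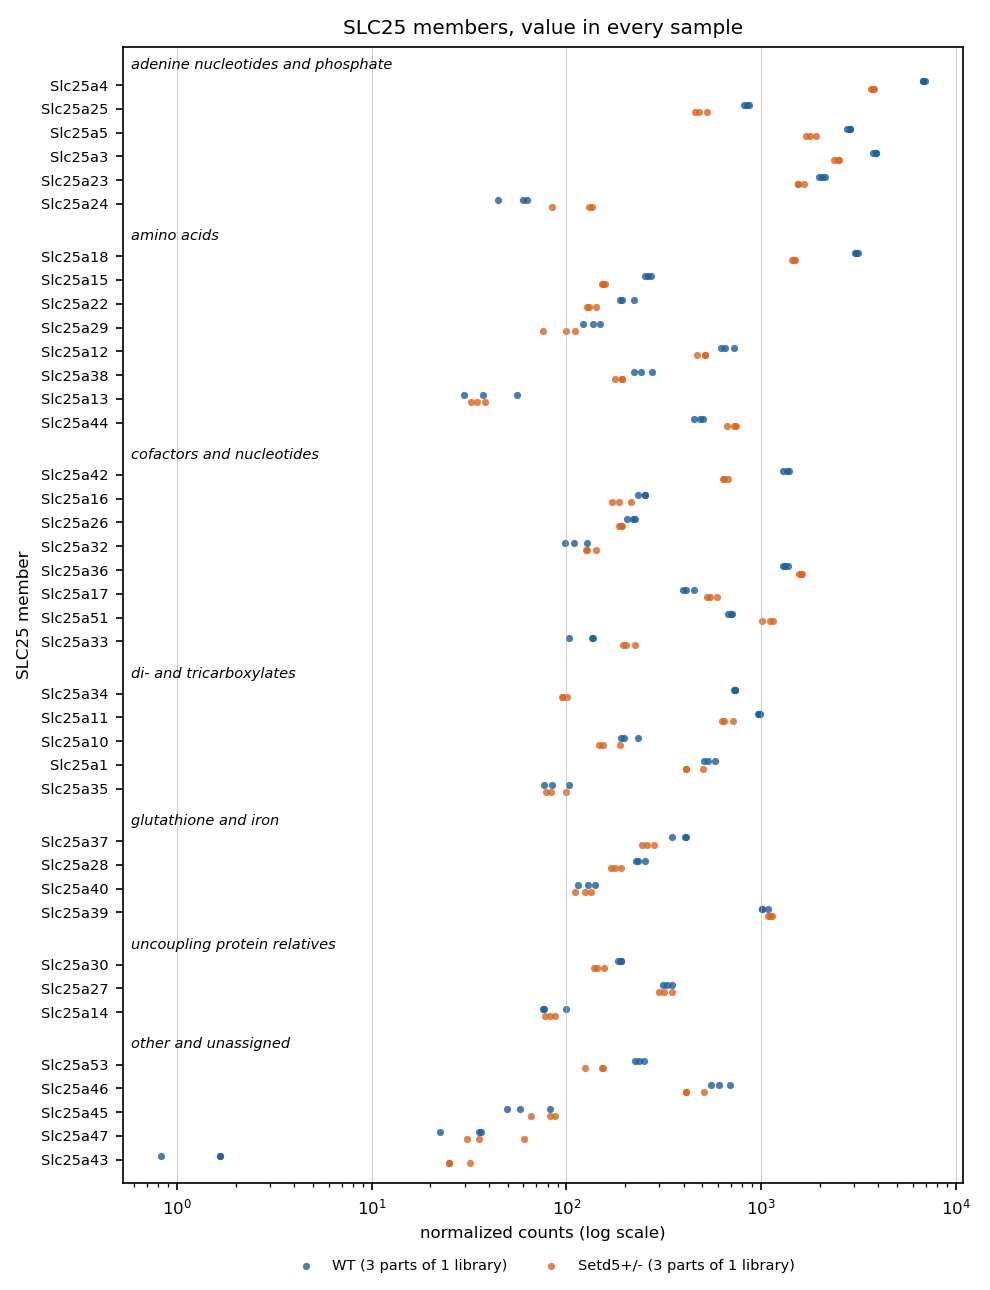
Normalized counts of 39 of the 40 members tested, on a log axis, one row per member and grouped by substrate. Each blue point is a WT sample and each orange point a Setd5+/- sample, the 3 of a genotype being parts of 1 library. The 3 points of a genotype lie close together in abundant members such as Slc25a4 (6781 to 6947 in WT, 3686 to 3804 in Setd5+/-) and spread out in rare ones such as Slc25a24 and Slc25a13.

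**Figure D2:**
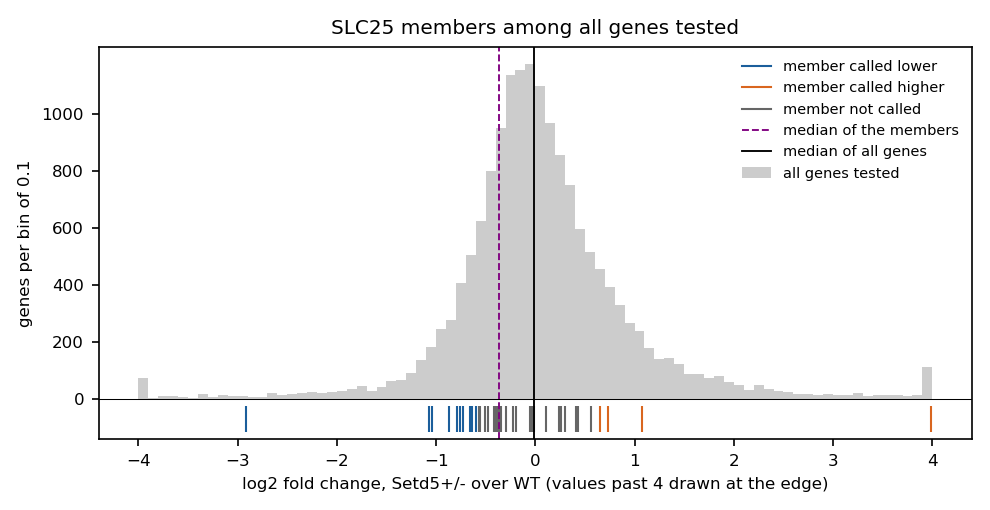
Distribution of the log2 fold change, Setd5+/- over WT, over all 16266 genes tested (grey bars, bins of 0.1) with each SLC25 member as a tick below, coloured by its call. The ticks gather left of 0, with a median of -0.37 (dashed line) against -0.02 for all genes (solid line).

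Levels were then compared per length, as normalized counts per kb of annotated exon. Summed over the 40 members this came to 10719 in WT and 7079.8 in Setd5+/-, or 66.1% of the WT sum. A few carriers made up much of it: Slc25a4, Slc25a5 and Slc25a3 together held 49.7% of the WT sum and 44.2% of the Setd5+/- sum. Without these 3, the sum of the other 37 members went from 5390 to 3951, a log2 difference of -0.45. Much of that difference was Slc25a18, without which the other 36 went from 3776 to 3185 (-0.25). Of the 14 members that averaged at least 500 normalized counts, 6 were called lower and 1 higher. The share called among all genes at that level was not computed, so this count has no background to set it against. By substrate, the summed level in Setd5+/- was 60.3% of WT for adenine nucleotides and phosphate, 57.8% for amino acids and 58.3% for di- and tricarboxylates. Single members weighed on these sums: it was 94% for the other 7 amino acid carriers without Slc25a18, 73.9% for the other 4 di- and tricarboxylate carriers without Slc25a34, and 65.8% for the first group without Slc25a4. It was 105% for cofactors and nucleotides, 98.2% for glutathione and iron, 92.4% for the uncoupling protein relatives and 88.5% for the members without a settled substrate.

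**Figure D3:**
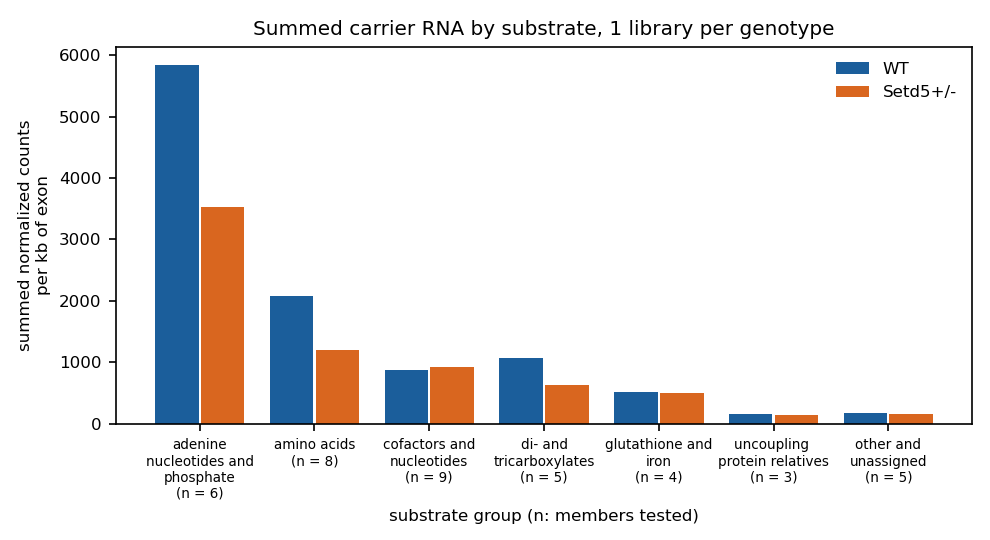
Summed normalized counts per kb of exon for each substrate group, blue bars for WT and orange bars for Setd5+/-, with the number of members tested in brackets and 1 library per genotype. The first group stood at 5840 and 3524, the amino acid carriers at 2072 and 1197 and the di- and tricarboxylate carriers at 1070 and 624, while the cofactor and nucleotide carriers stood at 879.2 and 918.8.

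Among carriers of adenine nucleotides and phosphate, 4 of the 6 members tested were called lower and 1 higher (all genes: 14.8% and 18.9%). The ADP/ATP carriers exchange matrix ATP for cytosolic ADP. Slc25a4, the form best known from heart and muscle, had 6801, 6781 and 6947 normalized counts in WT and 3686, 3777 and 3804 in Setd5+/-, and it had the highest level of the family per kb in both libraries. Its log2 fold change was -0.87 (-0.91 to -0.82), or 54.9% of WT. Slc25a5, the form of dividing cells, had 2776, 2876 and 2873 in WT and 1784, 1692 and 1907 in Setd5+/-, a log2 fold change of -0.66 (-0.73 to -0.59). Both forms were lower in every heterozygous sample, and the ratio of Slc25a4 to Slc25a5 per kb went from 1.69 to 1.46, a difference in log2 fold change of -0.20 (-0.29 to -0.12). The testis form Slc25a31 had 2 reads in each library, so no fold is given.

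Slc25a5 has near-identical copies in the genome that can share its reads. The reads had been aligned with Bowtie2, which does not split a read over an intron, and a processed copy holds the joined exons. Of 7 annotated pseudogenes with at least 90% identity over at least 300 bases, Gm5560 (chr5:97264828-97265719, 98.3% identical) carried the most, with a mean of 651.8 normalized counts in WT and 473.7 in Setd5+/-. With the counts of all 7 added, an addition chosen after the values were seen, the copies made up 20% of the WT sum and 22.4% of the Setd5+/- sum, and the log2 fold change came to -0.62 (-0.68 to -0.56). The fall of Slc25a5 was thus nearly the same with and without its copies.

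Slc25a3 brings phosphate into the matrix. It had 3890, 3904 and 3766 normalized counts in WT and 2505, 2372 and 2488 in Setd5+/-, or 63.7% of WT (log2 fold change -0.65, -0.71 to -0.59). The carriers that exchange ATP-Mg for phosphate, and so set the adenine nucleotide pool of the matrix, differed among themselves. Slc25a23, the most abundant of them per kb, had 2061, 2118 and 1981 in WT and 1546, 1653 and 1555 in Setd5+/- (log2 fold change -0.37, -0.45 to -0.30), lower in all samples but not called. Slc25a25 had 813.5, 870.3 and 848 in WT and 458.9, 482.3 and 526.5 in Setd5+/-, and was called lower at -0.79 (-0.92 to -0.65). Slc25a24 was called higher, with 63.02, 59.57 and 44.72 in WT and 135.9, 84.55 and 131 in Setd5+/- (1.07, 0.71 to 1.43).

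These shifts in opposite directions changed the makeup of the ATP-Mg carriers. Slc25a23 stood 23.9-fold above Slc25a24 per kb in WT and 8.77-fold above it in Setd5+/-. The difference in log2 fold change was -1.44 (-1.81 to -1.08) for Slc25a23 over Slc25a24 and -1.86 (-2.24 to -1.47) for Slc25a25 over Slc25a24. Slc25a41, the form without the calcium-binding part, had 5 reads in WT and 0 in Setd5+/-, and Slc25a54 had 0 and 4, too few for a statement.

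**Figure D4:**
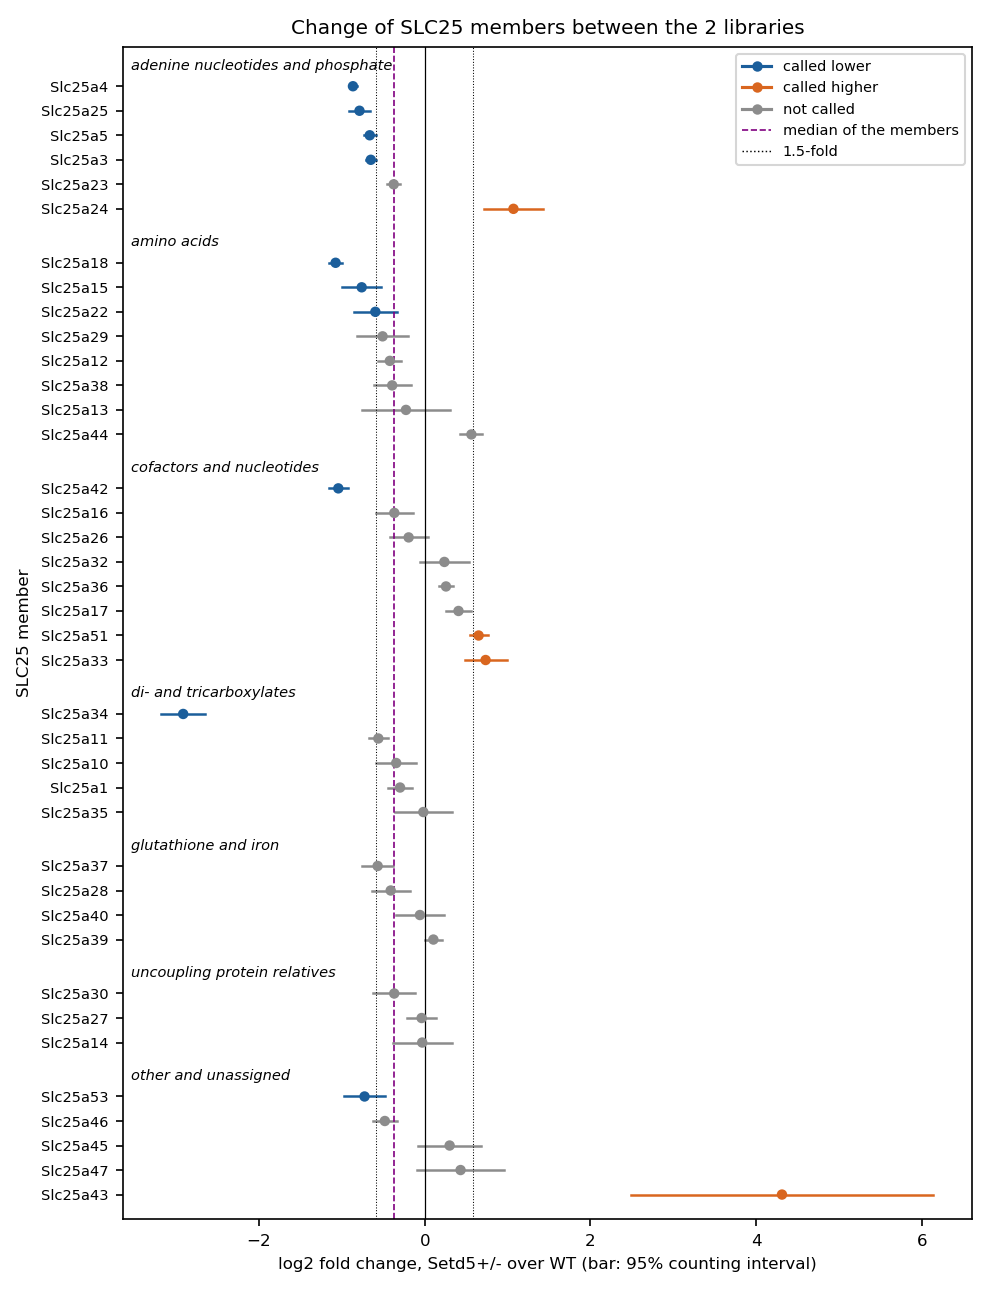
Log2 fold change, Setd5+/- over WT, of 39 of the 40 members tested, grouped by substrate, with bars for the 95% counting interval. Blue marks members called lower, orange members called higher and grey those not called. Dotted lines mark 1.5-fold and the dashed line the median of the members at -0.37. Slc25a34 stands far to the left at -2.91 and Slc25a43 far to the right at 4.31, with a wide interval from few reads.

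Among amino acid carriers, 3 of the 8 members tested were called lower and none higher (all genes: 14.8% and 18.9%). The median of their log2 fold changes was -0.46. Slc25a18 and Slc25a22 both carry glutamate into the matrix. Slc25a18 (chr6:120773578-120794336) was by far the more abundant, with 3154, 3081 and 3021 normalized counts in WT and 1440, 1468 and 1485 in Setd5+/-. Its log2 fold change was -1.07 (-1.15 to -1.0), or 47.5% of WT. Slc25a22 had 221.4, 188.6 and 193 in WT and 129.9, 141.7 and 127.5 in Setd5+/- (-0.60, -0.85 to -0.34). Its call was marginal, and it was lost at log2 fold changes of -0.52 to -0.58 without WT sample 1, Setd5+/- sample 1 or Setd5+/- sample 3. Both glutamate carriers thus fell, Slc25a18 by more: their ratio per kb went from 48.1 to 34.5, a difference of -0.48 (-0.75 to -0.21).

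The aspartate/glutamate carriers serve the malate-aspartate shuttle, which passes reducing equivalents of cytosolic NADH to the matrix. Slc25a12 (aralar), the form of brain and muscle, had 724.8, 623 and 651.7 in WT and 512.5, 513.3 and 468.2 in Setd5+/- (-0.42, -0.56 to -0.28). Slc25a13 (citrin), the form of liver, had 55.56, 37.23 and 29.81 in WT and 32.18, 38.11 and 34.55 in Setd5+/- (-0.23, -0.76 to 0.30). Slc25a12 was lower in every heterozygous sample, the values of Slc25a13 overlapped, and neither was called. The ratio of the pair per kb was 8.44 in WT and 7.37 in Setd5+/-, a difference of -0.19 whose interval (-0.74 to 0.35) held 0. Without WT sample 1 the log2 fold change of Slc25a13 turned to 0.06.

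Slc25a15, the ornithine carrier of the urea cycle, was called lower, with 253.7, 261.4 and 271.6 in WT and 158.5, 153.6 and 152.5 in Setd5+/- (-0.76, -0.996 to -0.524). The basic amino acid carrier Slc25a29 had a log2 fold change of -0.51 and Slc25a38, which carries glycine for haem synthesis, one of -0.39, neither of them called; without Setd5+/- sample 1, Slc25a29 was called lower at -0.63. The branched-chain amino acid carrier Slc25a44 went the other way, with 487.6, 503.8 and 454.6 in WT and 744.9, 724 and 668.3 in Setd5+/- (0.56, 0.43 to 0.70), short of the 1.5-fold needed. Without WT sample 2 or Setd5+/- sample 3 it was called higher, at 0.60 and 0.61. Slc25a2, a second ornithine carrier, had 10 reads in WT and 2 in Setd5+/-.

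The largest fall of the family was in the group of di- and tricarboxylate carriers. Slc25a34 (chr4:141618824-141623821), a relative of the dicarboxylate carriers, had 736.4, 738.8 and 724.6 normalized counts in WT and 96.54, 95.27 and 100.1 in Setd5+/-. This is 13.3% of WT, a log2 fold change of -2.91 (-3.18 to -2.65). Its closest relative in the group, Slc25a35, had 103.7, 76.94 and 84.47 in WT and 83.43, 100 and 78.62 in Setd5+/- (-0.02, -0.36 to 0.33), and the genotypes overlapped. Slc25a35 shares 31.3% of its exon bases with Rangrf on the other strand, where the mean was 35.34 normalized counts in both genotypes, and whether counting used strand is not given in the sources used here.

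The other carriers of the group were lower without a call. Slc25a11 exchanges 2-oxoglutarate for malate and is the other carrier of the malate-aspartate shuttle. It had 990.9, 972.9 and 969.7 in WT and 644.8, 631.2 and 714.7 in Setd5+/- (-0.56, -0.68 to -0.44), lower in every heterozygous sample. Its value was close to the fold needed: it was called lower, at -0.60, when samples were scaled to their upper quartile or to total reads, and at -0.62 without Setd5+/- sample 3. Slc25a1, which exports citrate for lipid synthesis, had a log2 fold change of -0.30 (-0.44 to -0.15), and the dicarboxylate carrier Slc25a10 one of -0.34 (-0.58 to -0.10). Slc25a21, which carries oxodicarboxylates of lysine breakdown, had 0 reads in both libraries.

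Carriers of cofactors and nucleotides were split between the directions, with 2 of 9 called lower and 2 called higher (all genes: 14.8% and 18.9%). Their median log2 fold change was 0.24. Slc25a42, which brings coenzyme A into the matrix, had 1384, 1301 and 1353 normalized counts in WT and 642.4, 678.8 and 639.7 in Setd5+/-. Its log2 fold change was -1.04 (-1.15 to -0.93), or 48.6% of WT. Slc25a16, linked to the same cofactor, had -0.37 (-0.59 to -0.14) and was not called. The values of Slc25a42 were lower in every heterozygous sample.

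Slc25a51, the NAD carrier, was called higher, with 697.4, 712.3 and 677.4 in WT and 1151, 1110 and 1015 in Setd5+/- (0.65, 0.54 to 0.76). The pyrimidine nucleotide carriers, which supply mitochondrial DNA and RNA synthesis, both had higher values. Slc25a33 had 135.2, 136.5 and 102.7 in WT and 201.4, 226.3 and 195.4 in Setd5+/-, and was called higher at 0.73 (0.48 to 0.99). Slc25a36 had 1325, 1368 and 1300 in WT and 1557, 1614 and 1601 in Setd5+/- (0.26, 0.17 to 0.34), above WT in every sample but not called. Slc25a36 stood 2.10-fold above Slc25a33 per kb in WT and 1.51-fold in Setd5+/-, a difference of -0.48 (-0.74 to -0.21).

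Some reads of these 3 genes may belong elsewhere. Slc25a33 shares 14.9% of its exon bases with the antisense gene Gm13068, which had means of 35.62 in WT and 50.43 in Setd5+/-. The pseudogene Gm17831, 93.4% identical to Slc25a51, had means of 12.98 and 28.59, and Slc25a51 with that copy added stood at 0.66. Gm13217, 99.6% identical to a stretch of Slc25a36, had means of 143.8 and 191.8, and Slc25a36 with it stood at 0.27. The copies thus moved in the same direction as the carriers and changed their values little. In the rest of the group, the S-adenosylmethionine carrier Slc25a26 (-0.19), the folate and FAD carrier Slc25a32 (0.24) and the peroxisomal cofactor carrier Slc25a17 (0.41) were not called.

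None of the 4 glutathione and iron carriers was called. Slc25a39, which brings glutathione into mitochondria, had 1084, 1010 and 1005 in WT and 1133, 1110 and 1089 in Setd5+/- (0.10, 0.01 to 0.20). Its relative Slc25a40 had 114.4, 129.1 and 140.8 in WT and 110.8, 125 and 133.4 in Setd5+/- (-0.06, -0.35 to 0.23), and the ratio of the pair per kb was 24.5 and 27.4 (difference 0.16, -0.14 to 0.47). The mitoferrins carry iron for haem and iron-sulfur clusters. Slc25a37 had 410.5, 406.2 and 348.6 in WT and 280.1, 245.3 and 260.9 in Setd5+/- (-0.57, -0.75 to -0.38), and Slc25a28 had 254.6, 232.5 and 228.6 in WT and 169.2, 177.4 and 191.8 in Setd5+/- (-0.41, -0.64 to -0.18). Both mitoferrins were lower in every heterozygous sample, and their ratio per kb was 0.99 and 1.1 (difference of Slc25a28 over Slc25a37 0.16, -0.14 to 0.45). Slc25a37 was close to a call: it was called lower, at -0.61, when samples were scaled to their upper quartile or to total reads, and at -0.64 without WT sample 3 and -0.62 without Setd5+/- sample 1.

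**Figure D5:**
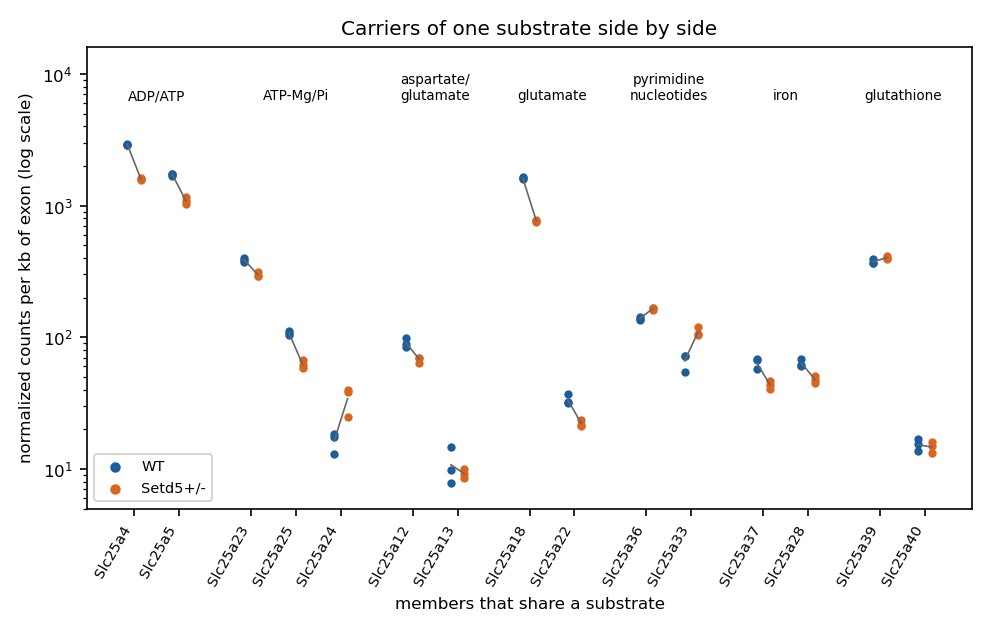
Normalized counts per kb of exon, on a log axis, of members that share a substrate, with WT samples in blue, Setd5+/- samples in orange and a line between the genotype means. Both ADP/ATP carriers and both glutamate carriers slope down, whereas Slc25a24 rises among the ATP-Mg carriers and Slc25a33 rises among the pyrimidine nucleotide carriers.

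The relatives of the uncoupling proteins were not called either. Slc25a14 and Slc25a27, both known from brain, had log2 fold changes of -0.03 (-0.38 to 0.32) and -0.04 (-0.22 to 0.14), and their values overlapped between the genotypes. Slc25a30 had -0.37 (-0.62 to -0.11).

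Of the members without a settled substrate or with another role, 1 was called lower and 1 higher among 5 tested (all genes: 14.8% and 18.9%). Slc25a53, on the X chromosome, had 250.4, 225.9 and 236.8 in WT and 124, 154.8 and 152.5 in Setd5+/- (-0.73, -0.97 to -0.48). Slc25a43 (chrX:36743659-36777202) had 1.658, 0.8273 and 1.656 in WT and 25.03, 32.15 and 25.02 in Setd5+/-, from 5 and 69 reads. The log2 fold change of 4.31 has an interval of 2.48 to 6.14. Without WT sample 1 or 3, WT keeps only 3 reads, and the log2 fold change is then a lower bound of 2.39. Slc25a43 was near 0 in all WT samples and low in the heterozygous ones, so it added little carrier RNA: 15.4 normalized counts per kb, against 1090 for Slc25a5, which lies next to it on the same strand (chrX:36795651-36798807) and was called lower. Slc25a46, a member of the outer membrane that takes part in mitochondrial dynamics, had -0.48 (-0.62 to -0.34), and Slc25a45 (0.30) and the liver member Slc25a47 (0.43) had intervals that held 0. Without Setd5+/- sample 2, Slc25a46 was called lower at -0.59, and without Setd5+/- sample 1, Slc25a47 was called higher at 0.62. Slc25a48, linked to choline transport, had 2 and 6 reads, and Slc25a5-ps had means of 6.63 and 6.75 normalized counts.

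The bases before the transcription start were read for the members with the largest changes, to show what the start regions of carriers that went opposite ways look like. RefSeq windows of 250 bases upstream of the start (GRCm38.p6) were used for 35 member genes, 45 windows in all, against 32851 windows of all genes. Some members have no window in this set, among them Slc25a46 and Slc25a2. Shares of member windows and statements about them therefore cover these 45 windows and not the whole family. Slc25a34 and Slc25a42 are shown for the falls, and Slc25a43 and Slc25a24 for the rises. Slc25a18 is left out since its window overlaps its own transcript, but such windows stay in the shares of member windows. A stretch just after the start was found in an annotated transcript of the gene for 39 of the 45 windows, and not for that of Slc25a43. Each window shown is written 5′ to 3′ on the strand of the gene, and capitals mark the motifs searched on both strands.
Slc25a34: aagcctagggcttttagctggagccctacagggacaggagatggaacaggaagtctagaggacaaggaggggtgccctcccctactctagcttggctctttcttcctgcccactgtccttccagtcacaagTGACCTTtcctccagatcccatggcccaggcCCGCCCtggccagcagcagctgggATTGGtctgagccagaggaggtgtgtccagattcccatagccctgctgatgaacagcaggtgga
Slc25a42: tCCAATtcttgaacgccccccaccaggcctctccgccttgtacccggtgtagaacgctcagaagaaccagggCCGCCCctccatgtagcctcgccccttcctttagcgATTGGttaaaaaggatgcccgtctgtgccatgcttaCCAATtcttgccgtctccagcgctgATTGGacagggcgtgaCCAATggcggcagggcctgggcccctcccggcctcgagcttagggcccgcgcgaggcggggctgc
Slc25a43: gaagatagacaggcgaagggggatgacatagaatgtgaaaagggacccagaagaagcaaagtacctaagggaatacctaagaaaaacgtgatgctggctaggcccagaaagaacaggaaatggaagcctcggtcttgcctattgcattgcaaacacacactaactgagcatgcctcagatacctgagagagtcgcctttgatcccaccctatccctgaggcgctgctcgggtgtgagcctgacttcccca
Slc25a24: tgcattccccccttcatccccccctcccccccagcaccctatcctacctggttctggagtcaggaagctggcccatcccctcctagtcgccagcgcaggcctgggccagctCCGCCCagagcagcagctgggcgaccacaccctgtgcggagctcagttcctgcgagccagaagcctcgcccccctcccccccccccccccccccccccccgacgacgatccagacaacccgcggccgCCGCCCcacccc
The windows are chr4:141623835-141624084 (minus strand), chr8:70212282-70212531 (minus), chrX:36743382-36743631 (plus) and chr3:109122899-109123148 (plus). The window of Slc25a34 has 1 CpG dinucleotide and a GC content of 58.4%. The CpG counts are 18 for Slc25a42, 14 for Slc25a24 and 6 for Slc25a43. The window of Slc25a34 also holds the binding letters of oestrogen-related receptors (AAGGTCA, here on the other strand). It is the only one of the 45 member windows that does (2.22%), below the 4.08% of all windows. A CCAAT box (CCAAT) and a GC box (GGGCGG) are in the window of Slc25a34 as well. The window of Slc25a42 has CCAAT boxes on both strands and a GC box. That of Slc25a24 has GC boxes, and that of Slc25a43 has none of the motifs searched.

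Over the member windows, the GC box was in 68.9%, against 32.7% of all windows, CCAAT in 46.7% against 33.8%, and the E-box CACGTG in 17.8% against 6.02%. TATAAA was in 4.44% against 12.4%. The NRF1 core CGCATGCG and the ATF4 composite TGATGCAA were in 0 member windows, against 1.55% and 0.791% of all. Member windows had a median GC content of 57.6%, against 52.4% of all, and several genes have more than 1 window, so the shares describe the letters only.

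Genes that work beside the carriers were listed as well. Among enzymes of the malate-aspartate shuttle, 3 of 4 were called lower, against 14.8% of all genes. Mdh1 went from a mean of 2518 to 1208 normalized counts (-1.06), Mdh2 from 2744 to 1663 (-0.72) and Got1 from 607.1 to 277.6 (-1.13). Got2 was not called (-0.35). Among partner enzymes of the citrate and glutamate carriers, Cs (citrate synthase, -0.59) and Glud1 (glutamate dehydrogenase, -0.87) were called lower, and Acly (-0.52) and Idh2 (-0.18) were not called. Glud1, which uses the glutamate that Slc25a18 brings in, went from 5392 to 2950.

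Newly made carriers are taken up through TOM70 and handed by small TIM chaperones to the TIM22 complex. Of the 9 genes of this route tested, 4 were called lower and none higher (all genes: 14.8% and 18.9%), with a median of -0.55. Those called were Timm9 (-1.16), Timm10 (-1.02), Timm10b (-0.66) and Timm8b (-0.62), all of them small TIM proteins. Tomm70a (-0.26), Timm22 (0.04), Timm29 (-0.39), Timm13 (-0.55) and Agk (0.09) were not called. Of 3 outer membrane channels, Vdac2 was called lower (1196 to 543.6, -1.14), and Vdac1 and Vdac3 were not.

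Other transporters of the inner membrane did not share the lower median. Their median was -0.02, the same to 2 decimals as over all genes. Of 18 tested, 4 were called lower and 1 higher, where 14.8% of all genes were called lower and 18.9% higher. With only 18 genes, these counts were not read as a difference from all genes. The ones called lower were Sfxn1, which carries serine (-0.64), Sfxn2 (-0.67), Sfxn5 (-0.70) and Smdt1, a part of the calcium uniporter (-0.65). Slc8b1, the sodium/calcium exchanger, was called higher (1.52). Of carriers of the SLC25 fold with other names, Ucp2 went from 84.2 to 5.56 normalized counts and was called lower (-3.92, -4.99 to -2.85), while Mtch1 (-0.03) and Mtch2 (-0.41) were not called.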

How the data were processed

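The authors trimmed reads with Trimmomatic, aligned them to mm10 with Bowtie2 and used DESeq2, as the submitters' processing notes list. The program that counted reads, its versions and its use of strand are not given in the sources used here. The values the authors deposited are normalized counts, reads divided by the size factor of the sample, in all 6 value columns. Many had lost their decimal point, and it was restored where a value became a whole number of reads (within 0.0001 read), with the deposited mean deciding in 1116 genes. In the other 51322 genes with values, those at 0 in every sample included, the first placement tried gave the digits of the deposited mean. That match was the condition for keeping the placement, so it is not a separate check. Another 672 genes had no values. Columns of the authors' own fold change, log2 scale, standard error and p-value were not used. Depth was 7143309 to 10004948 reads per sample.

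Genes that averaged at least 10 normalized counts were compared as the log2 ratio of genotype means, with a 95% counting interval from a variance of 1.95 (WT) and 1.92 (Setd5+/-) times the mean. No fold was given for members below that mean. Where only 1 genotype had 3 reads or fewer, the fold was taken as a bound. Positions and exon lengths are from GENCODE vM21 (GRCm38), copies from blastn 2.17.0. The exon length is the union of all annotated exons, so levels of genes with long rare exons are understated. Samples were grouped by the genotype label, and the value columns by their names, wt or clone. All members but 1, which is not reported here by name but enters the counts and sums, are named; values in every sample are given for the 5 largest falls and rises among called members that averaged at least 100, for members that share a substrate, for Setd5 and for other called members named, the last added after their values were seen. The members, gene lists, promoter motifs and tests were chosen with earlier results of these data known. Alternatives changed the scaling, filter, pseudocount, call rule, samples and chromosomes, and included limma 3.58.1 in R 4.3.3 with and without a replicate block.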

Additional observations from a re-analysis of the deposited data

How the results depend on the processing

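The counts of called members and genes followed the call rule. With at least 2-fold, 3 members were called lower, 2 higher and 2745 genes in all, against 11, 4 and 5479 with 1.5-fold. With the counting interval alone the counts were 23, 8 and 10625. limma on log2(normalized count + 1) with a Benjamini-Hochberg adjusted p under 0.05 called 23 members lower, 7 higher and 9963 genes, and with the replicate block 23, 7 and 9946; these fits compare the reads of 2 libraries, and the replicate numbers are only the numbers of file parts, so they pair nothing. Leaving out each sample in turn gave 10 to 12 members lower, 4 to 5 higher and 5384 to 5431 genes, with a median log2 fold change of the members between -0.38 and -0.34. Under the other scalings, filters and the pseudocount, and without chromosome 1, the counts stayed within 1.5 times and the median of the members stayed below 0; scaling to the upper quartile or total reads moved the median of all genes from -0.02 to -0.06. Of 557 values of single members under all settings, 555 stayed inside the counting interval of the member, 2 (both of Slc25a43) left it and 0 of the called ones changed sign. Depth limits Slc25a43, Slc25a24 and Slc25a13, and nothing here measures how cultures or clones of a genotype differ.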
